A study of Homo sapiens with 15 samples.

Results

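ATF4 is a transcription factor of the basic leucine zipper family that cells make in larger amounts when protein synthesis is slowed by stress. Phosphorylation of the initiation factor eIF2α, by kinases that sense missing amino acids, unfolded protein in the endoplasmic reticulum (ER), viral RNA or haem shortage, lowers translation of most mRNAs and raises that of ATF4. Its known targets import and make amino acids, charge tRNAs, and include both its partner factors and the genes that end the response. The ER branches of the unfolded protein response, run by ATF6, IRE1 and PERK, add chaperones and the genes for removal of misfolded protein. The genes described here are 37 members of this programme, chosen by symbol from the 23368 genes of the deposited table: 9 regulators and feedback genes, 6 serine and one-carbon enzymes, 4 other amino acid enzymes, 5 amino acid transporters, 6 tRNA synthetases, 3 secreted or surface proteins and 4 ER stress genes. All 37 were found and all 37 passed the filter on low values.

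RNA was sequenced from U2OS, a human osteosarcoma line with wild-type p53, in 6 groups. Nutlin at 10 µM blocks MDM2, the ubiquitin ligase that holds p53 low, and DMSO alone was the vehicle. Asynchronous cells grew without a block, with 3 DMSO and 3 Nutlin libraries, for a time with Nutlin that the sources used here do not give. Non-released cells had passed through thymidine at 2 mM for 16 h, 8 h without it and 16 h with it again, and stayed in the block, with 2 DMSO and 2 Nutlin libraries. S-phase cells were freed from the same block and harvested 4 h later, with 3 DMSO and 2 Nutlin libraries. In both blocked arms Nutlin or DMSO was added 4 h before release or the continued block, and Nutlin stayed in the medium after release. All groups are described as the same line. In the library labelled DMSO asynchronous replicate 3, ESR1 had 1434.1 normalised reads, against 2.1 to 22.6 in the other libraries. GRHL2 had 494.3 there, against 0.0 to 1.6. Whether that library holds RNA of this line alone was not tested. It stays in the asynchronous DMSO group in the fits on 15 libraries, so comparisons with that group there include it. Nothing in the labels tells whether replicates were cultured separately, so the p-values refer to the spread between these libraries, which may be technical.

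Depth ran from 6.05 to 23.38 M reads per library, and values below are on the deposited log2-like scale, with differences given ± their standard error (SE) from limma. CDKN1A and MDM2, direct p53 targets that check the Nutlin label, lay at 13.51 to 14.17 and 14.55 to 14.84 in the Nutlin libraries. In all but 1 DMSO library they lay at 11.45 to 12.53 and 12.44 to 13.10. The exception was the library labelled DMSO asynchronous replicate 3, at 14.10 and 14.77, which goes against its label. It also held the highest value of 7 of 8 epithelial markers and of 8 of 8 luminal breast markers, XBP1 being one of the latter: KRT19 had 7826.1 normalised reads there against 3.7 to 33.9 elsewhere. Its summed epithelial markers came to 15034.0 normalised reads, against 244.7 to 535.0 in the others, and its summed luminal markers to 37559.2 against 14716.7 to 20200.8. Bone and mesenchymal markers summed to 56692.5 to 84366.0 in all libraries, lowest in that library, with TWIST1 at the lowest value of the table throughout, and blood markers to 2.1 to 16.4, with CD3E at the lowest value throughout. DMSO S-phase replicate 2, the shallowest library, had the highest bone and mesenchymal sum and stood apart from its own group. Its mean correlation over genes with its group was 0.9773, and that of the library labelled DMSO asynchronous replicate 3 was 0.9753, against 0.9832 to 0.9966 for the rest. In bulk RNA, fewer cells of a type and less RNA per cell cannot be told apart. Calls of members that rest on either library are given with all 15 libraries and with the 13 left without both. Differences of other pathway genes are from 15 libraries, with their calls in 13 stated.

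Sequences around the starts of the members were searched for elements through which ATF4 and the ER sensors are known to act. RefSeq windows of 300 bases on GRCh38.p14, from 250 before to 50 after an annotated start, were found for 30 of the 37 members. The C/EBP-ATF response element, searched as TGATGNAAN on both strands, is the composite site bound by ATF4 with a C/EBP partner. It lay in 9 of the 47 windows of these members (19.149%), 1 for each of 9 members, and in 1268 of the 35116 windows of all genes (3.611%). These 9 sites are shown because they mark the members with a letter match to the ATF4 site, each read 5′ to 3′ on the strand of the match with the element in capitals.
ASNS (chr7:97872458-97872486, minus strand): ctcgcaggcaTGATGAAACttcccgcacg
CEBPG (chr19:33374061-33374089, plus strand): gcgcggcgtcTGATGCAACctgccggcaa
CHAC1 (chr15:40953251-40953279, minus strand): ctggcaggagTGATGCAACggcaggggag
HERPUD1 (chr16:56931955-56931983, minus strand): gggcacgggcTGATGCAACccgccgcgtc
AARS (chr16:70289676-70289704, plus strand): ctaacttggcTGATGCAACtgcgagaaaa
GARS (chr7:30594834-30594862, minus strand): gctcggagcaTGATGAAATcgccgcgtaa
MARS (chr12:57488053-57488081, minus strand): aatccctcgcTGATGCAACcggaaccggc
SLC3A2 (chr11:62881725-62881748, minus strand): ggagcTGATGTAAGgagtcctgca
SLC7A1 (chr13:29595663-29595691, minus strand): ggcgcactgcTGATGAAACctggcgccgg
Those of SLC7A1 and SLC3A2 lie downstream of the start, that of MARS spans it, and the other 6 lie upstream. A match is a description of letters and does not show binding in these cells. A miss covers only these 300 bases, and 7 members without a window were not searched.

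The ER stress element, searched on both strands as CCAAT and CCACG with 9 bases of any kind between them, is read by ATF6 with NF-Y. It was found for HSPA5 and XBP1 and in 0.077% of all windows. ER stress element II, ATTGG and CCACG with 1 base of any kind between them, was found for HERPUD1 and in 0.054%. A cAMP response element, TGACGTCA, also sought on both strands like all others here, was found for PPP1R15A and in 1.848%. A full p53 site was searched as 2 half-sites RRRCWWGYYY, 0 to 13 bases apart, without mismatch. Here R is A or G, W is A or T and Y is C or T. It was found in 10 of all windows (0.028%) and in none of the members'. A pattern this rare would seldom be met in so few windows, so its absence says only that those letters are not in them. The 250 bases before the start of HERPUD1 and HSPA5 are shown on the gene's strand because HERPUD1 was called on release and HSPA5 was not in 15 libraries, with the elements in capitals. In HERPUD1 the first capitals are the C/EBP-ATF element read from the opposite strand and the next are ER stress element II, while in HSPA5 they are the ER stress element.
HERPUD1 (chr16:56931892-56932141, plus strand): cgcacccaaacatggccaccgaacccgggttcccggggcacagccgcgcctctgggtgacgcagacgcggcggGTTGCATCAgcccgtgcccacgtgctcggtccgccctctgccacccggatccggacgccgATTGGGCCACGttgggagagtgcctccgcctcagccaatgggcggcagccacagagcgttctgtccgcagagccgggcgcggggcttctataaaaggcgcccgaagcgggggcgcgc
HSPA5 (chr9:125241344-125241593, minus strand): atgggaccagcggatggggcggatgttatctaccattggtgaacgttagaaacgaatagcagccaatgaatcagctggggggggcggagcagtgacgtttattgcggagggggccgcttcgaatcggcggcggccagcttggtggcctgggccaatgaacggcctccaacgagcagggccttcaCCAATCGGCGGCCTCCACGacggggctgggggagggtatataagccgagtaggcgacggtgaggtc
XBP1 (chr22:28800593-28800631, minus strand): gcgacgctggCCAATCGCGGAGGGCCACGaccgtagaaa
PPP1R15A (chr19:48872353-48872380, plus strand): cctctcttcgTGACGTCAgcacgccggg
The ER stress elements of HSPA5 and XBP1 lay close to the start, at -66 and -52 bases, and in HERPUD1 the C/EBP-ATF element lay at -177 and ER stress element II at -117 bases.

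In counts over the 37 members, as over all genes, many differed between asynchronous cells and the other states and few under Nutlin. A member counted as called at an adjusted p under 0.05 in limma, adjusted over all 14298 genes tested, and "rose" and "fell" are used only for calls. Against asynchronous cells with DMSO, 6 members rose and 10 fell in non-released cells, 43.2% of members where 33.9% of all genes were called. In S-phase cells 5 rose and 9 fell (37.8% against 27.7%). With Nutlin, 5 rose and 12 fell in non-released cells (45.9% against 34.5%), and 2 rose and 8 fell in S-phase cells (27% against 24%). Release itself, S-phase against non-released, gave 2 up and 2 down with DMSO (10.8% against 6.99%) and 1 up with Nutlin (2.7% against 2.43%). Nutlin raised 3 members in asynchronous cells (8.11% against 2.45%), 2 in S-phase cells (5.41% against 2%) and none in non-released cells (0% against 0.916%). In non-released cells 4 of the 37 members and 954 of the 14298 genes had an unadjusted p under 0.05 in limma. There voom called 0 members. No member fell under Nutlin in any state. The non-released and S-phase comparisons share their asynchronous libraries, so their values are set side by side only. Groups this small often lack overlap in either direction. Non-released against asynchronous libraries did so for 57.6% of all genes with DMSO and 70.8% with Nutlin. S-phase against asynchronous gave 35.5% and 59.4%, and release 37.8% and 52.2%. Nutlin against DMSO gave 18.1% without a block, 45.7% under the block and 25.8% after release. A lack of overlap below only describes the values.

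Median differences over the members were small. They came to -0.13 for non-released and -0.19 for S-phase against asynchronous cells with DMSO, where all genes tested had -0.01 in both, and to -0.18 and -0.07 with Nutlin, where all genes had 0.00 in both. In 13 libraries the DMSO medians were -0.16 and -0.02, so that the S-phase one lay near that of all genes (0.01 and -0.01), and the Nutlin ones were -0.18 and -0.07. For Nutlin against DMSO the members' medians were 0.03 in asynchronous, -0.02 in non-released and 0.00 in S-phase cells, and -0.005, -0.02 and -0.06 in 13 libraries. In at least 1 of these 9 comparisons 22 of the 37 members were called (59.5%), against 51.3% of all genes. In 13 libraries 31 were called, where 68.7% of all genes were. The 15 never called in 15 libraries were DDIT3, CEBPB, CEBPG, PSAT1, SHMT2, MTHFD2, ASNS, GPT2, AARS, EPRS, WARS, STC2, HSPA5, DNAJB9 and XBP1. Of these, CEBPB, ASNS, GPT2, EPRS, WARS and STC2 were called in no comparison of 13 libraries either.

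**Figure D1:**
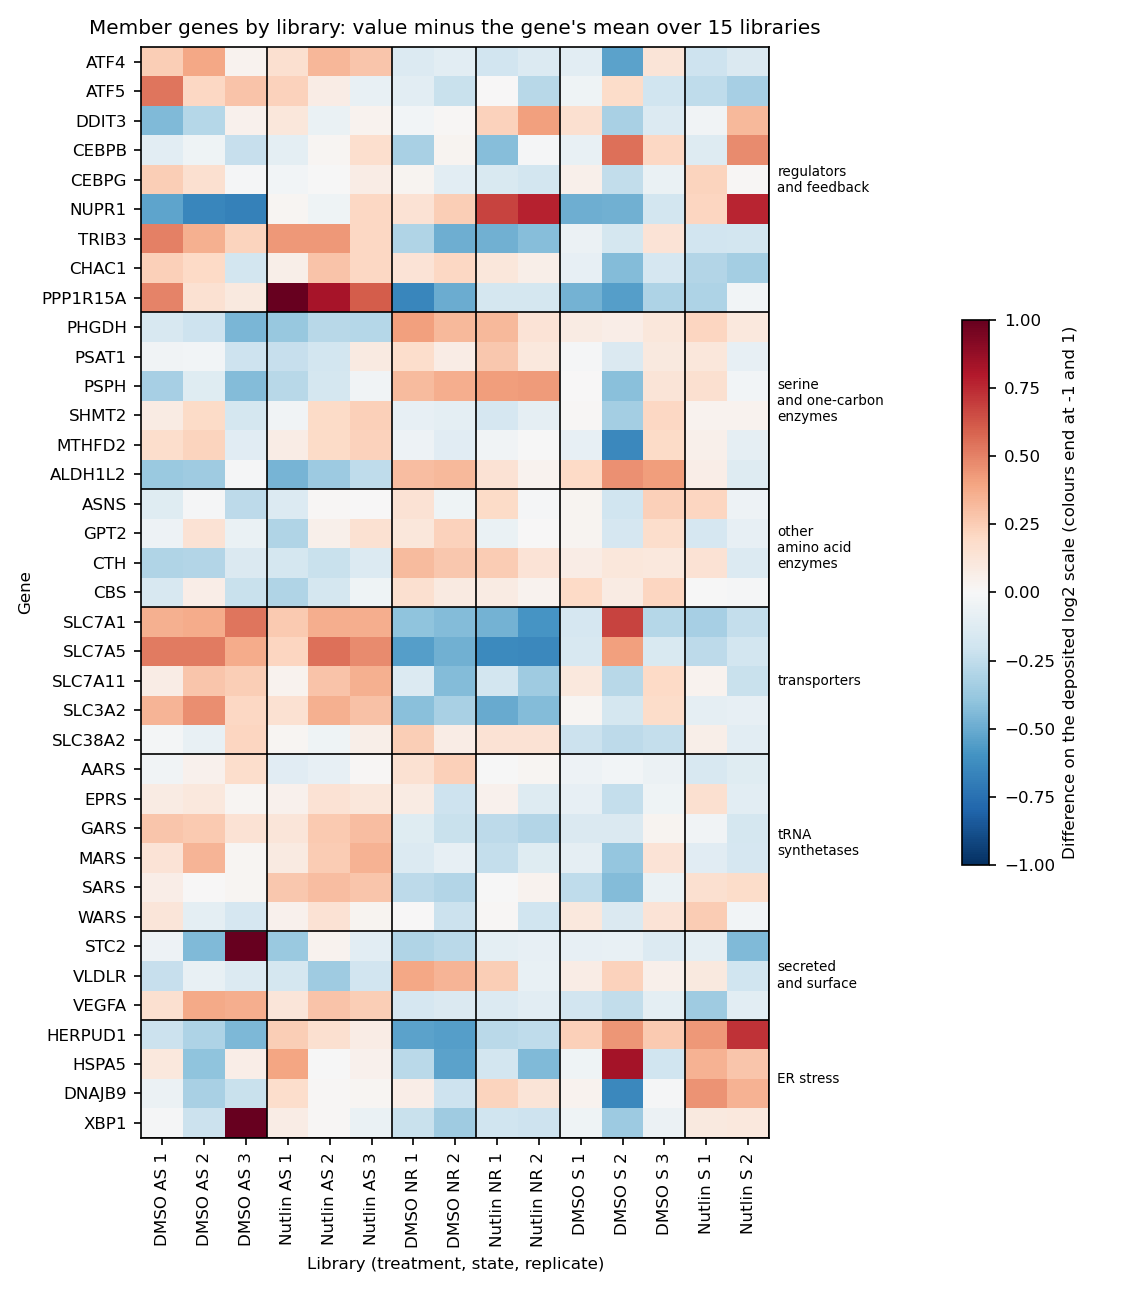
Each row is a member gene and each column a library, coloured by the deposited log2 value minus that gene's mean over 15 libraries, with colours ending at -1 and 1. The transporters other than SLC38A2, with TRIB3 and VEGFA, are red in the asynchronous libraries and blue in the non-released ones, PHGDH, PSPH and CTH are the reverse, and STC2 and XBP1 are dark red only in the library labelled DMSO AS 3.

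Without the 2 libraries that stand apart, member counts were higher in 8 of the 9 comparisons. Shares of all genes called were larger as well and stand beside each count. Against asynchronous cells with DMSO, 8 members were higher and 15 lower in non-released cells (47.8% of all genes), and 6 were higher and 10 lower in S-phase cells (31.6%). With Nutlin, 8 were higher and 15 lower in non-released cells (49.9%), and 5 were higher and 12 lower in S-phase cells (41%). Release gave 5 higher and 4 lower with DMSO (14.2%) and 6 higher and 2 lower with Nutlin (10.8%). Nutlin itself gave 4 higher in asynchronous cells (6.21%), 1 in non-released (3.21%) and 2 in S-phase cells (3.94%), and none lower.

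**Figure D2:**
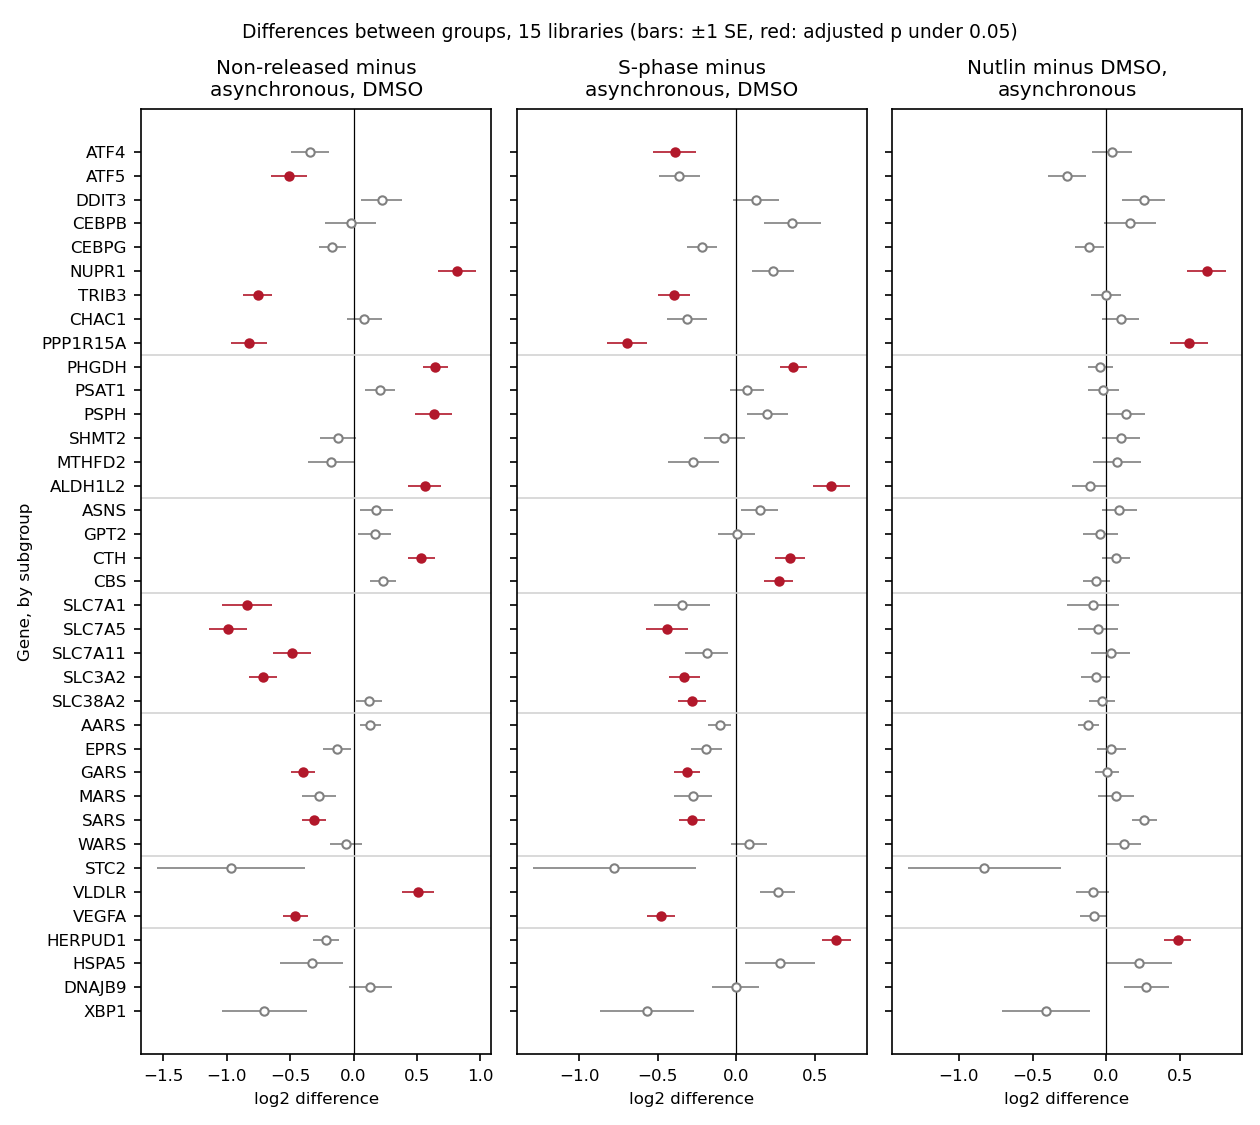
Points are differences between group means on the deposited log2 scale for each member, bars are 1 SE from the fit over 15 libraries, and red points have an adjusted p under 0.05. With DMSO, SLC7A5 lies at -0.99 and NUPR1 at 0.82 in non-released against asynchronous cells, and under Nutlin 3 members are red, all to the right of 0.

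ATF4 mRNA itself had its highest group means in asynchronous cells. With DMSO, ATF4 lay at 12.66, 12.80 and 12.45 in asynchronous, at 12.28 and 12.31 in non-released and at 12.31, 11.89 and 12.54 in S-phase libraries. With Nutlin, ATF4 lay at 12.58, 12.75 and 12.70 in asynchronous, at 12.23 and 12.28 in non-released and at 12.21 and 12.28 in S-phase libraries. The Nutlin libraries of blocked and released cells all lay below those of asynchronous cells. With DMSO the S-phase values spread widely. The highest of them, at 12.54, lay above only the asynchronous library that goes against its label, at 12.45. All lay below the other asynchronous DMSO libraries, at 12.66 and 12.80. ATF4 fell by 0.39 ± 0.14 (adjusted p = 0.0455, with -0.31 in 13 libraries) in S-phase cells with DMSO and fell by 0.42 ± 0.15 (adjusted p = 0.045) in non-released cells with Nutlin. Non-released cells with DMSO differed by -0.34 ± 0.15, adjusted p = 0.0981, and S-phase cells with Nutlin by -0.43 ± 0.15, adjusted p = 0.0542. In 13 libraries both of these were called, at -0.44 ± 0.09, adjusted p = 0.0011 and -0.43 ± 0.08, adjusted p = 0.000853. The ATF4 call for S-phase cells with DMSO was lost without a filter on low values, under quantile normalization, with voom, without a mean-variance trend, with a replicate block and in the compared groups alone (adjusted p from 0.0527 to 0.201) and without DMSO asynchronous replicate 1 or 2 or DMSO S-phase replicate 1 or 2 (adjusted p from 0.0723 to 0.161). The ATF4 call for non-released cells with Nutlin was lost without a filter on low values, under quantile normalization, without a mean-variance trend and with a replicate block (adjusted p from 0.0524 to 0.432) and without Nutlin asynchronous replicate 1, 2 or 3 or Nutlin non-released replicate 1 or 2 (adjusted p from 0.0579 to 0.195). Nutlin against DMSO gave 0.04 ± 0.14, adjusted p = 0.979 in asynchronous cells, and neither other state was called. Since ATF4 is set mostly by translation, its mRNA is a partial view of the protein.

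NUPR1, a small stress-induced chromatin protein and known ATF4 target, was higher in blocked cells and under Nutlin. NUPR1 stood at 8.63, 8.50 and 8.48 with DMSO and 9.18, 9.11 and 9.36 with Nutlin in asynchronous cells. In non-released cells NUPR1 stood at 9.30 and 9.40 with DMSO and 9.83 and 9.93 with Nutlin, and in S-phase cells at 8.67, 8.67 and 8.98 with DMSO and 9.37 and 9.92 with Nutlin. Every Nutlin library lay above every DMSO library of its state, and non-released libraries lay above asynchronous ones under either treatment. Nutlin raised it by 0.68 ± 0.13 (adjusted p = 0.0117, with 0.65 in 13 libraries) in asynchronous cells and by 0.87 ± 0.15 (adjusted p = 0.00511, with 0.82 in 13 libraries) in S-phase cells, where its libraries lay apart from each other. In non-released cells the Nutlin difference was 0.53 ± 0.16, adjusted p = 0.235. With DMSO it rose by 0.82 ± 0.15 (adjusted p = 0.000985, with 0.79 in 13 libraries) in non-released cells and fell by 0.58 ± 0.15 (adjusted p = 0.0298, with -0.53 in 13 libraries) on release. With Nutlin it rose by 0.66 ± 0.15 (adjusted p = 0.00388) in non-released cells. In S-phase against asynchronous cells with Nutlin, NUPR1 was called higher in 13 libraries only. The NUPR1 call for Nutlin in asynchronous cells was lost without DMSO asynchronous replicate 2 or Nutlin asynchronous replicate 3 (adjusted p from 0.0569 to 0.0628). The NUPR1 call for Nutlin in S-phase cells was lost in the compared groups alone (adjusted p = 0.155) and without Nutlin S-phase replicate 2 (adjusted p = 0.101). The NUPR1 call for release with DMSO was lost in the compared groups alone (adjusted p = 0.0916) and without DMSO non-released replicate 1 or 2 or DMSO S-phase replicate 1 or 2 (adjusted p from 0.0569 to 0.227). The library labelled DMSO asynchronous replicate 3, with CDKN1A and MDM2 at the Nutlin level, had the lowest NUPR1 value of all 15.

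ATF5, a relative of ATF4 that is also translated under stress, was lower in blocked cells. In DMSO libraries ATF5 had values of 8.81, 8.48 and 8.56 in asynchronous, of 8.17 and 8.05 in non-released and of 8.23, 8.46 and 8.07 in S-phase cells. In Nutlin libraries ATF5 had values of 8.50, 8.34 and 8.20, of 8.28 and 7.99 and of 8.02 and 7.95 in the same states. The non-released DMSO libraries lay below all 3 asynchronous ones, while with Nutlin the same groups overlapped. ATF5 fell by 0.51 ± 0.14 (adjusted p = 0.0152, with -0.54 in 13 libraries) with DMSO. The ATF5 call for non-released cells with DMSO was lost without DMSO asynchronous replicate 1 or DMSO non-released replicate 1 or 2 (adjusted p from 0.0523 to 0.122). S-phase cells with DMSO differed by -0.36 ± 0.13, adjusted p = 0.0503, and by -0.49 ± 0.14, adjusted p = 0.0146 in 13 libraries. In S-phase cells with Nutlin, ATF5 was called lower than in asynchronous cells in 13 libraries only. DDIT3 (CHOP), the factor tied to death after long ER stress, was not called in 15 libraries. In DMSO libraries DDIT3 had values of 7.82, 7.98 and 8.30 in asynchronous, of 8.24 and 8.27 in non-released and of 8.42, 7.94 and 8.12 in S-phase cells. In Nutlin libraries DDIT3 had values of 8.37, 8.19 and 8.29, of 8.49 and 8.67 and of 8.23 and 8.58 in the same states. Its asynchronous DMSO values spread from 7.82 to 8.30, the highest being the library that goes against its label. In 13 libraries DDIT3 was called in non-released (0.36 ± 0.14, adjusted p = 0.0414) and in S-phase cells (0.37 ± 0.14, adjusted p = 0.0483) with DMSO. CEBPB and CEBPG, binding partners of ATF4, were not called in 15 libraries, with values from 9.76 to 10.74 and from 10.45 to 10.95. CEBPG was called in 13, at -0.24 ± 0.09, adjusted p = 0.0332 in non-released cells with DMSO and 0.28 ± 0.09, adjusted p = 0.0482 on release with Nutlin.

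**Figure D3:**
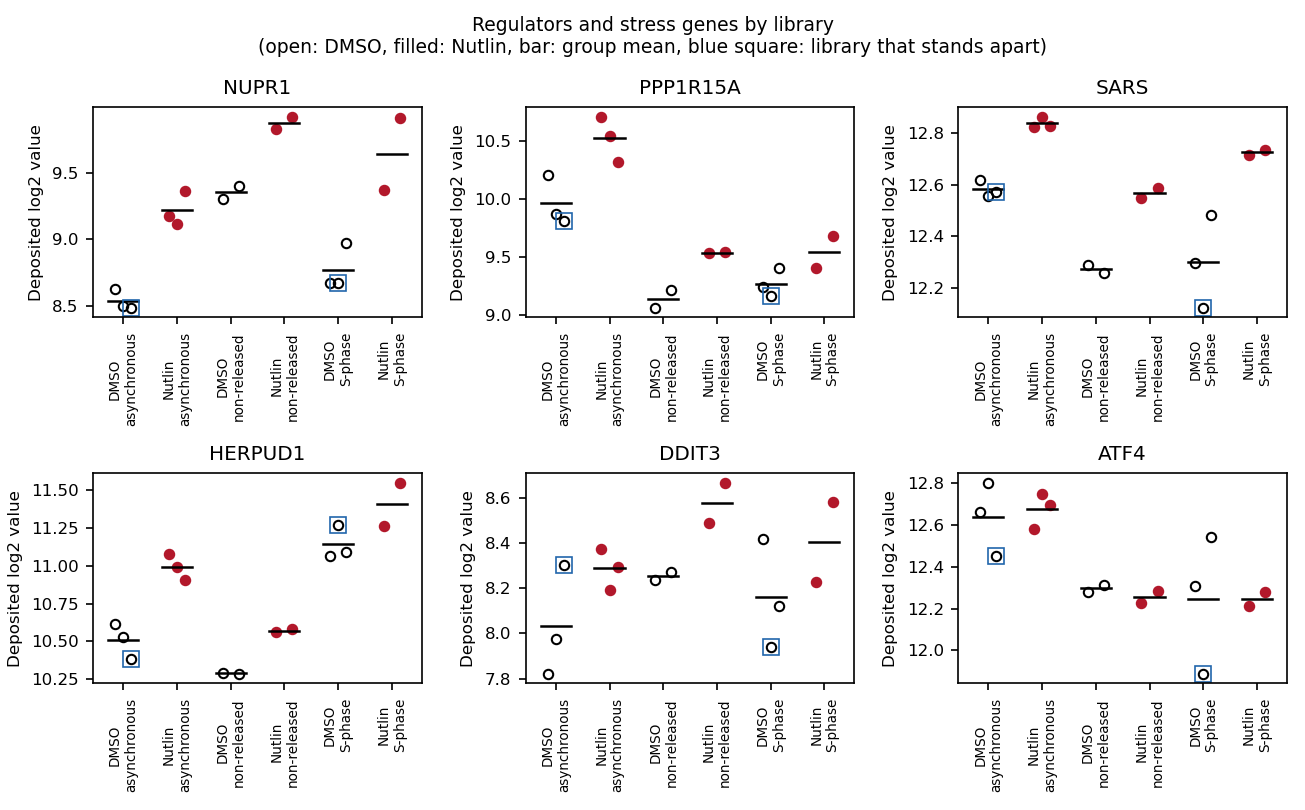
Circles are libraries (open DMSO, filled Nutlin), bars are group means, blue squares mark both libraries that stand apart, and each panel has its own vertical axis of deposited log2 values. The Nutlin circles of NUPR1 and SARS lie above all DMSO circles of the same state, those of HERPUD1 do so in asynchronous and non-released cells, and ATF4 shows no such split.

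Of the feedback genes, PPP1R15A (GADD34) brings the phosphatase that removes the phosphate from eIF2α and so ends the response. With DMSO, PPP1R15A lay at 10.21, 9.87 and 9.81 in asynchronous, at 9.07 and 9.22 in non-released and at 9.24, 9.17 and 9.41 in S-phase libraries. With Nutlin, PPP1R15A lay at 10.71, 10.54 and 10.32 in asynchronous, at 9.54 and 9.54 in non-released and at 9.41 and 9.69 in S-phase libraries. Its asynchronous libraries were the highest under either treatment, with no overlap with blocked or S-phase libraries of that treatment. Nutlin raised it by 0.56 ± 0.13 (adjusted p = 0.0316, with 0.48 in 13 libraries) in asynchronous cells. With DMSO it fell by 0.82 ± 0.14 (adjusted p = 0.000717, with -0.90 in 13 libraries) in non-released and fell by 0.69 ± 0.13 (adjusted p = 0.00178, with -0.72 in 13 libraries) in S-phase cells. With Nutlin it fell by 0.99 ± 0.14 (adjusted p = 0.0002) in non-released and fell by 0.98 ± 0.14 (adjusted p = 0.000409) in S-phase cells. The PPP1R15A call for Nutlin in asynchronous cells was lost in the compared groups alone (adjusted p = 0.115) and without DMSO asynchronous replicate 2 or 3 or Nutlin asynchronous replicate 1 or 2 (adjusted p from 0.083 to 0.193). None of its 4 calls between states was lost in any alternative run.

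TRIB3, a pseudokinase that binds ATF4 and holds it back, fell in every comparison with asynchronous cells. In DMSO libraries TRIB3 had values of 10.11, 9.96 and 9.82 in asynchronous, of 9.30 and 9.11 in non-released and of 9.54, 9.42 and 9.74 in S-phase cells. In Nutlin libraries TRIB3 had values of 10.03, 10.04 and 9.81, of 9.12 and 9.17 and of 9.41 and 9.41 in the same states. Blocked libraries were lowest, S-phase libraries were in between and asynchronous libraries highest, with no overlap within a treatment. TRIB3 fell by 0.76 ± 0.12 (adjusted p = 0.000332, with -0.83 in 13 libraries) in non-released and fell by 0.40 ± 0.10 (adjusted p = 0.0132, with -0.39 in 13 libraries) in S-phase cells with DMSO. With Nutlin, TRIB3 fell by 0.81 ± 0.12 (adjusted p = 0.0002) in non-released and fell by 0.55 ± 0.12 (adjusted p = 0.00449) in S-phase cells. The TRIB3 call for S-phase cells with DMSO was lost in the compared groups alone (adjusted p = 0.0934) and without DMSO asynchronous replicate 1 (adjusted p = 0.0531). Release with DMSO gave 0.36 ± 0.12, adjusted p = 0.0819, and was called in 13 libraries (0.43 ± 0.10, adjusted p = 0.0138). CHAC1, which degrades glutathione, was low in S-phase cells rather than in blocked ones. CHAC1 stood at 8.28, 8.23 and 7.85 with DMSO and 8.09, 8.32 and 8.24 with Nutlin in asynchronous cells. In non-released cells CHAC1 stood at 8.17 and 8.24 with DMSO and 8.15 and 8.09 with Nutlin, and in S-phase cells at 7.95, 7.60 and 7.87 with DMSO and 7.74 and 7.69 with Nutlin. Both S-phase Nutlin libraries lay below all other Nutlin libraries, and CHAC1 fell by 0.50 ± 0.14 (adjusted p = 0.0192) against asynchronous cells. With DMSO the same difference was -0.31 ± 0.12, adjusted p = 0.0766, and -0.34 ± 0.10, adjusted p = 0.0204 in 13 libraries. On release with Nutlin, CHAC1 was called lower in 13 libraries only. The CHAC1 call for S-phase cells with Nutlin was lost without Nutlin asynchronous replicate 2 or 3 or Nutlin S-phase replicate 1 or 2 (adjusted p from 0.0538 to 0.0973).

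Of the 6 serine and one-carbon enzymes, 3 rose in non-released cells with DMSO (50% of them, against 33.9% of all genes) and 3 with Nutlin (50% against 34.5%), and none fell in any comparison of 15 libraries. In 13 libraries 4 falls were called, of MTHFD2 and SHMT2 in non-released cells and of PHGDH and PSPH on release. PHGDH takes the first step of serine synthesis from glucose. With DMSO, PHGDH lay at 10.79, 10.74 and 10.49 in asynchronous, at 11.36 and 11.28 in non-released and at 11.03, 11.02 and 11.06 in S-phase libraries. With Nutlin, PHGDH lay at 10.57, 10.67 and 10.66 in asynchronous, at 11.28 and 11.08 in non-released and at 11.17 and 11.05 in S-phase libraries. All asynchronous libraries lay below all others. PHGDH rose by 0.64 ± 0.10 (adjusted p = 0.000293, with 0.55 in 13 libraries) in non-released and by 0.36 ± 0.09 (adjusted p = 0.00827, with 0.28 in 13 libraries) in S-phase cells with DMSO. With Nutlin, PHGDH rose by 0.55 ± 0.10 (adjusted p = 0.000928) in non-released and by 0.48 ± 0.10 (adjusted p = 0.00363) in S-phase cells. The PHGDH call for S-phase cells with DMSO was lost in the compared groups alone (adjusted p = 0.0828). On release with DMSO it differed by -0.28 ± 0.10, adjusted p = 0.106, and by -0.27 ± 0.08, adjusted p = 0.0375 in 13 libraries. PSPH takes the last step to serine. In DMSO libraries PSPH had values of 9.0047, 9.22 and 8.91 in asynchronous, of 9.65 and 9.70 in non-released and of 9.34, 8.92 and 9.46 in S-phase cells. In Nutlin libraries PSPH had values of 9.06, 9.17 and 9.31, of 9.76 and 9.77 and of 9.50 and 9.31 in the same states. The 4 non-released libraries were the highest of all, above every asynchronous and S-phase one. PSPH rose by 0.63 ± 0.15 (adjusted p = 0.0047, with 0.57 in 13 libraries) in non-released cells with DMSO and by 0.59 ± 0.15 (adjusted p = 0.00733) with Nutlin. The PSPH call for non-released cells with Nutlin was lost without Nutlin non-released replicate 1 or 2 (adjusted p from 0.052 to 0.0528). In S-phase cells with DMSO it differed by 0.20 ± 0.13, adjusted p = 0.275, and was called in 13 libraries (0.29 ± 0.11, adjusted p = 0.048), without DMSO S-phase replicate 2 at 8.92. On release with Nutlin PSPH differed by -0.36 ± 0.16, adjusted p = 0.283, and by -0.36 ± 0.11, adjusted p = 0.0405 in 13 libraries.

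ALDH1L2, which oxidises formyl-tetrahydrofolate in mitochondria, was higher in both blocked and released cells. ALDH1L2 stood at 7.66, 7.68 and 8.02 with DMSO and 7.57, 7.67 and 7.78 with Nutlin in asynchronous cells. In non-released cells ALDH1L2 stood at 8.34 and 8.36 with DMSO and 8.18 and 8.07 with Nutlin, and in S-phase cells at 8.23, 8.49 and 8.46 with DMSO and 8.10 and 7.91 with Nutlin. Within each treatment the asynchronous libraries lay below the rest. ALDH1L2 rose by 0.56 ± 0.13 (adjusted p = 0.00515, with 0.68 in 13 libraries) in non-released and by 0.61 ± 0.12 (adjusted p = 0.00258, with 0.67 in 13 libraries) in S-phase cells with DMSO, and by 0.45 ± 0.13 (adjusted p = 0.0171) in non-released cells with Nutlin. In S-phase cells with Nutlin the difference was 0.33 ± 0.13, adjusted p = 0.0844, and 0.33 ± 0.11, adjusted p = 0.0222 in 13 libraries. The ALDH1L2 call for S-phase cells with DMSO was lost in the compared groups alone (adjusted p = 0.0503). The ALDH1L2 call for non-released cells with Nutlin was lost under quantile normalization (adjusted p = 0.0825) and without Nutlin asynchronous replicate 1 or Nutlin non-released replicate 1 or 2 (adjusted p from 0.0581 to 0.133). PSAT1, the enzyme between PHGDH and PSPH, and the mitochondrial pair SHMT2 and MTHFD2 were not called in 15 libraries. Their values ran from 9.23 to 9.73, from 11.69 to 12.27 and from 12.35 to 13.22, and DMSO S-phase replicate 2 held the lowest SHMT2 and MTHFD2. In 13 libraries, PSAT1 was higher in non-released cells with Nutlin (0.30 ± 0.10, adjusted p = 0.026), SHMT2 was lower there (-0.26 ± 0.09, adjusted p = 0.0187), and MTHFD2 was lower in non-released cells with DMSO (-0.28 ± 0.09, adjusted p = 0.0207).

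**Figure D4:**
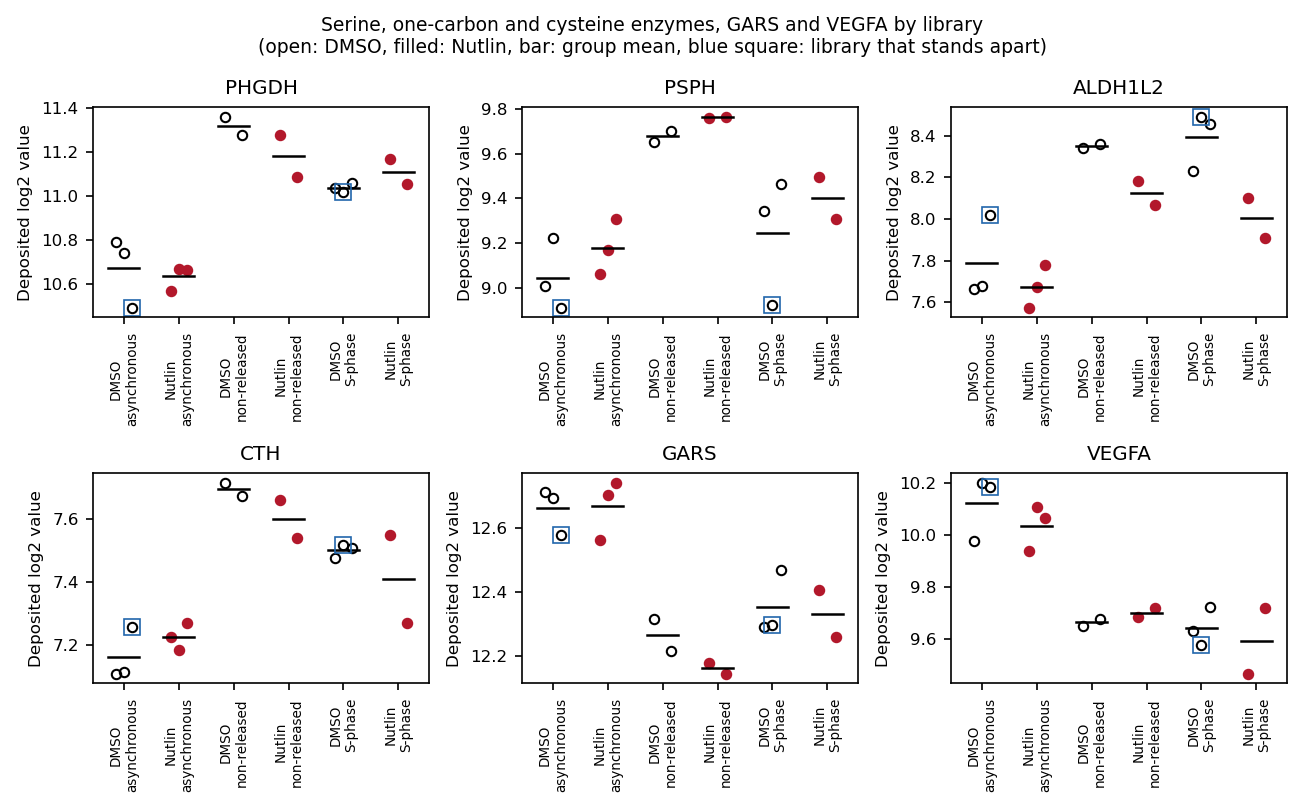
Circles are libraries (open DMSO, filled Nutlin), bars are group means and blue squares both libraries that stand apart, on a deposited log2 axis of its own for each gene. Non-released circles of PHGDH, PSPH, ALDH1L2 and CTH lie above the asynchronous ones, and those of GARS and VEGFA lie below them.

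Among the 4 other amino acid enzymes, the transsulfuration pair that makes cysteine rose and the others were not called. CTH releases cysteine from cystathionine. With DMSO, CTH lay at 7.11, 7.11 and 7.26 in asynchronous, at 7.72 and 7.67 in non-released and at 7.48, 7.52 and 7.51 in S-phase libraries. With Nutlin, CTH lay at 7.22, 7.18 and 7.27 in asynchronous, at 7.66 and 7.54 in non-released and at 7.55 and 7.27 in S-phase libraries. The asynchronous DMSO libraries lay below all blocked and S-phase DMSO ones, and with Nutlin 1 S-phase library lay level with the highest asynchronous one. CTH rose by 0.54 ± 0.11 (adjusted p = 0.00208, with 0.58 in 13 libraries) in non-released and by 0.34 ± 0.10 (adjusted p = 0.0191, with 0.38 in 13 libraries) in S-phase cells with DMSO, and by 0.38 ± 0.11 (adjusted p = 0.0162) in non-released cells with Nutlin. The CTH call for S-phase cells with DMSO was lost under quantile normalization and in the compared groups alone (adjusted p from 0.111 to 0.168) and without DMSO asynchronous replicate 1 or 2 (adjusted p from 0.0555 to 0.063). The CTH call for non-released cells with Nutlin was lost under quantile normalization (adjusted p = 0.306) and without Nutlin asynchronous replicate 2 or Nutlin non-released replicate 1 or 2 (adjusted p from 0.0502 to 0.143). CBS, which makes cystathionine, had smaller differences. In DMSO libraries CBS had values of 9.53, 9.76 and 9.47 in asynchronous, of 9.86 and 9.78 in non-released and of 9.89, 9.77 and 9.91 in S-phase cells. In Nutlin libraries CBS had values of 9.40, 9.52 and 9.65, of 9.78 and 9.73 and of 9.69 and 9.68 in the same states. Its S-phase DMSO libraries lay just above the asynchronous ones, and CBS rose by 0.27 ± 0.09 (adjusted p = 0.0418, with 0.25 in 13 libraries), a call that did not hold in 13 libraries (adjusted p = 0.0576). In non-released against asynchronous cells with Nutlin, CBS was called higher in 13 libraries only. The CBS call for S-phase cells with DMSO was lost without a filter on low values, without both libraries that stand apart and in the compared groups alone (adjusted p from 0.0524 to 0.177) and without DMSO asynchronous replicate 1 or 3 or DMSO S-phase replicate 1 or 3 (adjusted p from 0.0943 to 0.112). ASNS, which makes asparagine and is a classical ATF4 target, ran from 10.71 to 11.21 over all libraries, and GPT2, which links alanine and glutamate, from 10.36 to 10.89. Neither was called with 15 or 13 libraries.

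Of the 5 transporters, 4 fell in non-released cells under each treatment (80% of them, against 33.9% of all genes with DMSO and 34.5% with Nutlin). In S-phase cells 3 fell under each treatment (60% against 27.7% and 24%), and none rose against asynchronous cells. SLC7A5 (LAT1) imports large neutral amino acids as a heterodimer with SLC3A2 (CD98). SLC7A5 stood at 13.57, 13.58 and 13.43 with DMSO and 13.27, 13.61 and 13.53 with Nutlin in asynchronous cells. In non-released cells SLC7A5 stood at 12.50 and 12.58 with DMSO and 12.42 and 12.41 with Nutlin, and in S-phase cells at 12.89, 13.46 and 12.90 with DMSO and 12.80 and 12.87 with Nutlin. Non-released libraries were the lowest, and S-phase libraries lay between, apart from DMSO S-phase replicate 2 in the asynchronous range. SLC7A5 fell by 0.99 ± 0.15 (adjusted p = 0.000321, with -1.04 in 13 libraries) in non-released and fell by 0.44 ± 0.14 (adjusted p = 0.0278, with -0.68 in 13 libraries) in S-phase cells with DMSO. With Nutlin, SLC7A5 fell by 1.05 ± 0.15 (adjusted p = 0.000205) in non-released and fell by 0.63 ± 0.15 (adjusted p = 0.0086) in S-phase cells. On release it rose by 0.55 ± 0.15 (adjusted p = 0.0445, with 0.36 in 13 libraries) with DMSO. With Nutlin the release difference was 0.42 ± 0.17, adjusted p = 0.223, and 0.42 ± 0.09, adjusted p = 0.0123 in 13 libraries. The SLC7A5 call for S-phase cells with DMSO was lost under quantile normalization and in the compared groups alone (adjusted p from 0.145 to 0.221) and without DMSO asynchronous replicate 1 or 2 or DMSO S-phase replicate 1 or 3 (adjusted p from 0.0702 to 0.109). The SLC7A5 call for release with DMSO was lost without a filter on low values, under quantile normalization and in the compared groups alone (adjusted p from 0.0664 to 0.206) and without DMSO non-released replicate 1 or 2 or DMSO S-phase replicate 2 (adjusted p from 0.0546 to 0.277). The SLC7A5 call for S-phase cells with Nutlin was lost without Nutlin S-phase replicate 1 (adjusted p = 0.0696).

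SLC3A2, the heavy chain shared by SLC7A5 and SLC7A11, followed the same order of states. With DMSO, SLC3A2 lay at 12.96, 13.08 and 12.82 in asynchronous, at 12.19 and 12.29 in non-released and at 12.63, 12.44 and 12.79 in S-phase libraries. With Nutlin, SLC3A2 lay at 12.77, 12.97 and 12.91 in asynchronous, at 12.11 and 12.18 in non-released and at 12.52 and 12.53 in S-phase libraries. Within each treatment the groups did not overlap. SLC3A2 fell by 0.71 ± 0.11 (adjusted p = 0.00036, with -0.77 in 13 libraries) in non-released and fell by 0.33 ± 0.10 (adjusted p = 0.024, with -0.31 in 13 libraries) in S-phase cells with DMSO. With Nutlin, SLC3A2 fell by 0.74 ± 0.11 (adjusted p = 0.000287) in non-released and fell by 0.35 ± 0.11 (adjusted p = 0.034) in S-phase cells. Release was not called with DMSO (0.38 ± 0.11, adjusted p = 0.0558) or with Nutlin (0.39 ± 0.12, adjusted p = 0.122) in 15 libraries, while in 13 libraries it was called at 0.47 ± 0.09, adjusted p = 0.00259 with DMSO and 0.39 ± 0.09, adjusted p = 0.0121 with Nutlin. With DMSO, voom on 15 libraries called it as well (adjusted p = 0.0473). The SLC3A2 call for S-phase cells with DMSO was lost under quantile normalization and in the compared groups alone (adjusted p from 0.142 to 0.152) and without DMSO asynchronous replicate 1 or 2 or DMSO S-phase replicate 1 or 2 (adjusted p from 0.052 to 0.101). The SLC3A2 call for S-phase cells with Nutlin was lost under quantile normalization and with a replicate block (adjusted p from 0.0525 to 0.0755) and without Nutlin asynchronous replicate 2 or 3 or Nutlin S-phase replicate 1 or 2 (adjusted p from 0.0878 to 0.136).

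SLC7A1 (CAT1) imports arginine and lysine. In DMSO libraries SLC7A1 had values of 11.52, 11.53 and 11.69 in asynchronous, of 10.76 and 10.72 in non-released and of 10.99, 11.83 and 10.88 in S-phase cells. In Nutlin libraries SLC7A1 had values of 11.42, 11.53 and 11.52, of 10.69 and 10.57 and of 10.83 and 10.92 in the same states. DMSO S-phase replicate 2 was the highest of all 15, while the other S-phase and all non-released libraries lay below every asynchronous one. SLC7A1 fell by 0.84 ± 0.20 (adjusted p = 0.00574, with -0.78 in 13 libraries) in non-released cells with DMSO, and fell by 0.86 ± 0.20 (adjusted p = 0.00489) in non-released and fell by 0.62 ± 0.20 (adjusted p = 0.0379) in S-phase cells with Nutlin. In S-phase cells with DMSO it differed by -0.35 ± 0.18, adjusted p = 0.164, and by -0.59 ± 0.08, adjusted p = 0.000107 in 13 libraries. The SLC7A1 call for S-phase cells with Nutlin was lost without a filter on low values and under quantile normalization (adjusted p from 0.0545 to 0.0714) and without Nutlin asynchronous replicate 1, 2 or 3 or Nutlin S-phase replicate 1 or 2 (adjusted p from 0.0623 to 0.176).

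SLC7A11 (xCT) imports cystine in exchange for glutamate. SLC7A11 stood at 11.55, 11.76 and 11.73 with DMSO and 11.52, 11.77 and 11.84 with Nutlin in asynchronous cells. In non-released cells SLC7A11 stood at 11.34 and 11.05 with DMSO and 11.30 and 11.13 with Nutlin, and in S-phase cells at 11.59, 11.20 and 11.68 with DMSO and 11.52 and 11.26 with Nutlin. Non-released libraries lay below asynchronous ones under both treatments, and S-phase libraries overlapped both groups with DMSO. SLC7A11 fell by 0.48 ± 0.15 (adjusted p = 0.0238, with -0.46 in 13 libraries) in non-released cells with DMSO and fell by 0.49 ± 0.15 (adjusted p = 0.0216) with Nutlin. In 13 libraries it was also called on release with DMSO (0.44 ± 0.13, adjusted p = 0.0323) and in S-phase against asynchronous cells with Nutlin (-0.32 ± 0.12, adjusted p = 0.0397). The SLC7A11 call for non-released cells with DMSO was lost under quantile normalization (adjusted p = 0.16) and without DMSO asynchronous replicate 2 or DMSO non-released replicate 2 (adjusted p from 0.0694 to 0.241). The SLC7A11 call for non-released cells with Nutlin was lost under quantile normalization (adjusted p = 0.115) and without Nutlin asynchronous replicate 2 or 3 or Nutlin non-released replicate 1 or 2 (adjusted p from 0.0573 to 0.165). SLC38A2 (SNAT2), which imports small neutral amino acids, was lowest in S-phase DMSO cells. With DMSO, SLC38A2 lay at 13.51, 13.45 and 13.74 in asynchronous, at 13.77 and 13.60 in non-released and at 13.31, 13.26 and 13.28 in S-phase libraries. With Nutlin, SLC38A2 lay at 13.54, 13.48 and 13.59 in asynchronous, at 13.67 and 13.67 in non-released and at 13.59 and 13.42 in S-phase libraries. These 3 libraries lay below the other 12. SLC38A2 fell by 0.28 ± 0.09 (adjusted p = 0.0345, with -0.18 in 13 libraries) against asynchronous and fell by 0.40 ± 0.10 (adjusted p = 0.0293, with -0.39 in 13 libraries) against non-released cells with DMSO. Against asynchronous cells the call did not hold in 13 libraries (adjusted p = 0.106), the library that goes against its label being the highest of its group. The SLC38A2 call for S-phase cells with DMSO was lost without a filter on low values, under quantile normalization, without both libraries that stand apart and in the compared groups alone (adjusted p from 0.0502 to 0.345) and without DMSO asynchronous replicate 3 or DMSO S-phase replicate 1, 2 or 3 (adjusted p from 0.0603 to 0.0942). The SLC38A2 call for release with DMSO was lost in the compared groups alone (adjusted p = 0.132) and without DMSO non-released replicate 1 or 2 or DMSO S-phase replicate 1 or 3 (adjusted p from 0.0549 to 0.304).

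**Figure D5:**
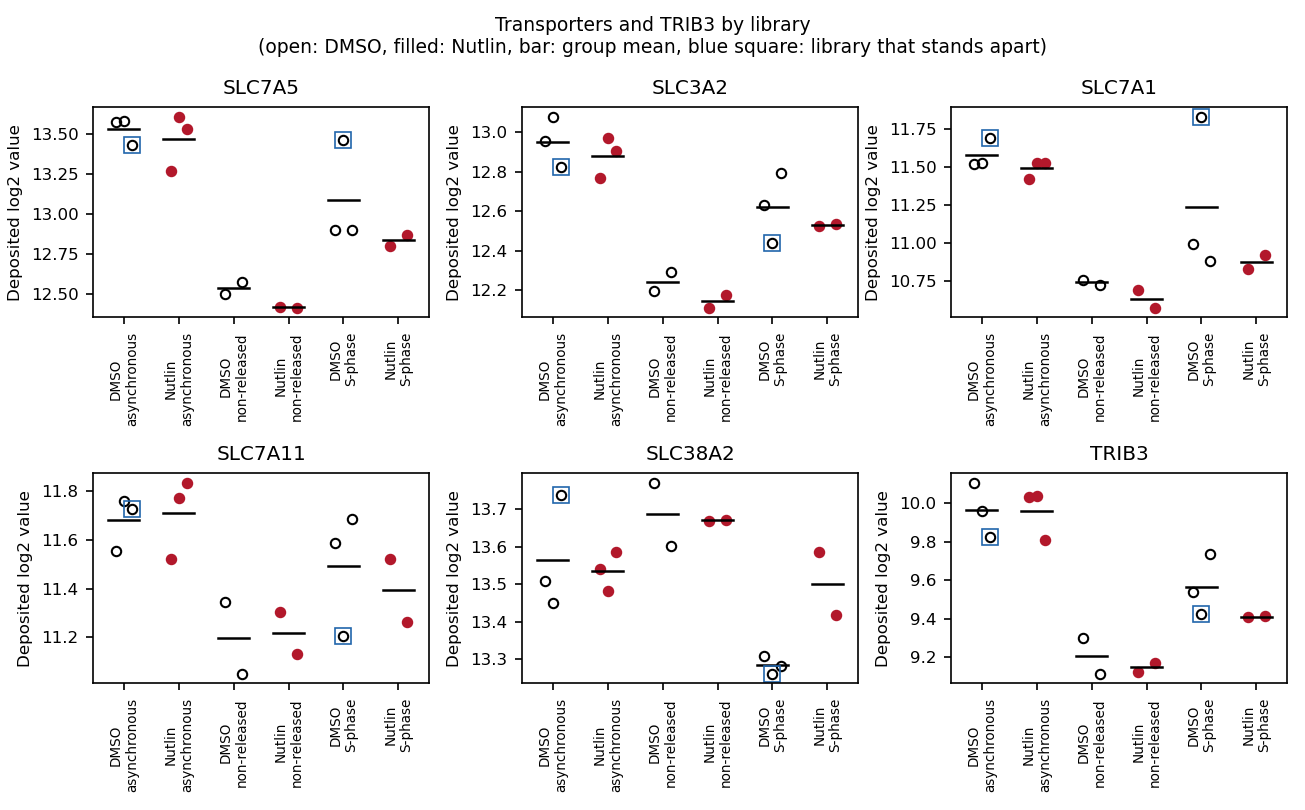
Circles are libraries (open DMSO, filled Nutlin), bars are group means and blue squares both libraries that stand apart, on a deposited log2 axis of its own for each gene. SLC7A5, SLC3A2 and TRIB3 are lowest in non-released cells, SLC38A2 is lowest in S-phase DMSO cells, and the squared S-phase circle of SLC7A1 lies above all others.

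The tRNA synthetases attach amino acids to their tRNAs, and of 6 members 2 fell in non-released and 2 in S-phase cells with DMSO. These are 33.3% of them each, near the 33.9% and 27.7% of all genes. With Nutlin 3 fell in non-released (50% against 34.5%) and 1 in S-phase cells (16.7% against 24%). GARS charges glycine. In DMSO libraries GARS had values of 12.72, 12.70 and 12.58 in asynchronous, of 12.32 and 12.22 in non-released and of 12.29, 12.30 and 12.47 in S-phase cells. In Nutlin libraries GARS had values of 12.56, 12.70 and 12.74, of 12.18 and 12.14 and of 12.41 and 12.26 in the same states. Asynchronous libraries lay above all others. GARS fell by 0.40 ± 0.09 (adjusted p = 0.00484, with -0.44 in 13 libraries) in non-released and fell by 0.31 ± 0.08 (adjusted p = 0.0132, with -0.33 in 13 libraries) in S-phase cells with DMSO. With Nutlin, GARS fell by 0.51 ± 0.09 (adjusted p = 0.001) in non-released and fell by 0.34 ± 0.09 (adjusted p = 0.017) in S-phase cells. The GARS call for non-released cells with DMSO was lost under quantile normalization (adjusted p = 0.187) and without DMSO non-released replicate 2 (adjusted p = 0.0678). The GARS call for S-phase cells with DMSO was lost under quantile normalization and in the compared groups alone (adjusted p from 0.0938 to 0.111) and without DMSO S-phase replicate 1 (adjusted p = 0.0516). The GARS call for S-phase cells with Nutlin was lost without Nutlin asynchronous replicate 2 or 3 or Nutlin S-phase replicate 2 (adjusted p from 0.0599 to 0.141). MARS charges methionine. With DMSO, MARS lay at 12.52, 12.72 and 12.41 in asynchronous, at 12.25 and 12.31 in non-released and at 12.30, 12.0002 and 12.52 in S-phase libraries. With Nutlin, MARS lay at 12.47, 12.64 and 12.73 in asynchronous, at 12.15 and 12.27 in non-released and at 12.28 and 12.22 in S-phase libraries. Non-released libraries lay below asynchronous ones, without overlap. Over all genes, 57.6% with DMSO and 70.8% with Nutlin had no overlap there, in either direction. MARS fell by 0.41 ± 0.14 (adjusted p = 0.0333) in non-released cells with Nutlin, and with DMSO differed by -0.27 ± 0.14, adjusted p = 0.143, or -0.34 ± 0.10, adjusted p = 0.0116 in 13 libraries. In S-phase cells with Nutlin, MARS was called lower than in asynchronous cells in 13 libraries only. The MARS call for non-released cells with Nutlin was lost under quantile normalization and with a replicate block (adjusted p from 0.0624 to 0.424) and without Nutlin asynchronous replicate 2 or 3 or Nutlin non-released replicate 1 or 2 (adjusted p from 0.0845 to 0.198).

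SARS, which charges serine, was the 1 synthetase called under Nutlin. SARS stood at 12.62, 12.56 and 12.57 with DMSO and 12.83, 12.87 and 12.83 with Nutlin in asynchronous cells. In non-released cells SARS stood at 12.29 and 12.26 with DMSO and 12.55 and 12.59 with Nutlin, and in S-phase cells at 12.30, 12.12 and 12.48 with DMSO and 12.72 and 12.73 with Nutlin. In all 3 states every Nutlin library lay above every DMSO library. Nutlin raised SARS by 0.43 ± 0.09 (adjusted p = 0.0326, with 0.34 in 13 libraries) in S-phase cells. In asynchronous cells the difference was 0.26 ± 0.08, adjusted p = 0.17, and in non-released cells 0.30 ± 0.10, adjusted p = 0.368. In 13 libraries these were called as well, at 0.25 ± 0.07, adjusted p = 0.0384 and 0.30 ± 0.07, adjusted p = 0.0423. With DMSO it fell by 0.31 ± 0.09 (adjusted p = 0.0212, with -0.31 in 13 libraries) in non-released and fell by 0.28 ± 0.08 (adjusted p = 0.0238, with -0.20 in 13 libraries) in S-phase cells, and with Nutlin it fell by 0.27 ± 0.09 (adjusted p = 0.0382) in non-released cells. The S-phase call with DMSO did not hold in 13 libraries (adjusted p = 0.0544). The SARS call for Nutlin in S-phase cells was lost under quantile normalization and in the compared groups alone (adjusted p from 0.062 to 0.442) and without DMSO S-phase replicate 1 or Nutlin S-phase replicate 1 or 2 (adjusted p from 0.0885 to 0.181). The SARS call for non-released cells with DMSO was lost under quantile normalization and in the compared groups alone (adjusted p from 0.0501 to 0.541) and without DMSO non-released replicate 1 or 2 (adjusted p from 0.0861 to 0.128). The SARS call for S-phase cells with DMSO was lost under quantile normalization, without both libraries that stand apart and in the compared groups alone (adjusted p from 0.0544 to 0.175) and without DMSO asynchronous replicate 1 or 2 or DMSO S-phase replicate 1 or 2 (adjusted p from 0.0527 to 0.0649). The SARS call for non-released cells with Nutlin was lost without a filter on low values, under quantile normalization and with a replicate block (adjusted p from 0.0513 to 0.897) and without Nutlin asynchronous replicate 1, 2 or 3 or Nutlin non-released replicate 1 or 2 (adjusted p from 0.0729 to 0.184).

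AARS, EPRS and WARS, for alanine, for glutamate and proline, and for tryptophan, were not called in 15 libraries. They ran from 11.47 to 11.86, from 12.37 to 12.77 and from 10.66 to 11.13. AARS was called in 13, higher in non-released against asynchronous cells with DMSO (0.19 ± 0.07, adjusted p = 0.0358) and lower on release (-0.25 ± 0.07, adjusted p = 0.0293), while GARS fell in the first of these.

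Of the secreted and surface members, VEGFA, the vessel growth factor, fell in each comparison with asynchronous cells. In DMSO libraries VEGFA had values of 9.98, 10.20 and 10.19 in asynchronous, of 9.65 and 9.68 in non-released and of 9.63, 9.58 and 9.72 in S-phase cells. In Nutlin libraries VEGFA had values of 9.94, 10.11 and 10.06, of 9.69 and 9.72 and of 9.46 and 9.72 in the same states. All asynchronous libraries lay above all others. VEGFA fell by 0.46 ± 0.10 (adjusted p = 0.00365, with -0.43 in 13 libraries) in non-released and fell by 0.48 ± 0.09 (adjusted p = 0.00217, with -0.41 in 13 libraries) in S-phase cells with DMSO. With Nutlin, VEGFA fell by 0.34 ± 0.10 (adjusted p = 0.0202) in non-released and fell by 0.45 ± 0.10 (adjusted p = 0.00662) in S-phase cells. The VEGFA call for non-released cells with Nutlin was lost under quantile normalization (adjusted p = 0.0564) and without Nutlin asynchronous replicate 2 or 3 or Nutlin non-released replicate 1 or 2 (adjusted p from 0.0566 to 0.119). The VEGFA call for S-phase cells with Nutlin was lost without Nutlin S-phase replicate 1 (adjusted p = 0.0957). VLDLR, a lipoprotein receptor, went the other way. With DMSO, VLDLR lay at 7.87, 8.03 and 7.97 in asynchronous, at 8.49 and 8.44 in non-released and at 8.18, 8.33 and 8.15 in S-phase libraries. With Nutlin, VLDLR lay at 7.93, 7.75 and 7.92 in asynchronous, at 8.35 and 8.03 in non-released and at 8.20 and 7.91 in S-phase libraries. Both non-released DMSO libraries were the highest of all, and VLDLR rose by 0.51 ± 0.13 (adjusted p = 0.00706, with 0.52 in 13 libraries). In non-released cells with Nutlin, VLDLR was called higher than in asynchronous cells in 13 libraries only. The VLDLR call for non-released cells with DMSO was lost without DMSO non-released replicate 1 (adjusted p = 0.0583). STC2, a secreted glycoprotein of calcium and phosphate balance, had 6.4 to 19.5 normalised reads in 14 libraries and 308.5 in the library labelled DMSO asynchronous replicate 3. Without that library it is a gene of few reads here, and it was called in no comparison. Epithelial and luminal markers were high in the same library, and their part in this value was not tested.

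The ER stress genes were led by HERPUD1, a membrane protein of ER-associated degradation. HERPUD1 stood at 10.61, 10.52 and 10.38 with DMSO and 11.08, 10.99 and 10.90 with Nutlin in asynchronous cells. In non-released cells HERPUD1 stood at 10.29 and 10.28 with DMSO and 10.56 and 10.58 with Nutlin, and in S-phase cells at 11.07, 11.27 and 11.09 with DMSO and 11.27 and 11.55 with Nutlin. Non-released libraries were lowest and S-phase libraries highest, with no overlap within a treatment. On release HERPUD1 rose by 0.86 ± 0.10 (adjusted p = 0.000261, with 0.79 in 13 libraries) with DMSO and by 0.84 ± 0.11 (adjusted p = 0.00115) with Nutlin, and it was the only member called on release in both with 15 libraries. Against asynchronous cells it rose by 0.64 ± 0.09 (adjusted p = 0.000428, with 0.51 in 13 libraries) with DMSO and by 0.42 ± 0.10 (adjusted p = 0.0104) with Nutlin in S-phase, and fell by 0.42 ± 0.10 (adjusted p = 0.00698) in non-released cells with Nutlin. Non-released cells with DMSO differed by -0.22 ± 0.10, adjusted p = 0.121, and by -0.28 ± 0.09, adjusted p = 0.0202 in 13 libraries. Nutlin raised it by 0.48 ± 0.09 (adjusted p = 0.0109, with 0.42 in 13 libraries) in asynchronous cells, while in non-released and S-phase cells the differences were 0.28 ± 0.11, adjusted p = 0.541 and 0.27 ± 0.10, adjusted p = 0.281. The HERPUD1 call for Nutlin in asynchronous cells was lost without Nutlin asynchronous replicate 1 or 2 (adjusted p from 0.0548 to 0.0772). The HERPUD1 call for non-released cells with Nutlin was lost without Nutlin non-released replicate 1 (adjusted p = 0.057). The HERPUD1 call for S-phase cells with Nutlin was lost without Nutlin S-phase replicate 2 (adjusted p = 0.138). Its window, printed above, holds both a C/EBP-ATF element and ER stress element II.

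HSPA5 (BiP), the main ER chaperone, DNAJB9, its J-domain partner, and XBP1, the factor spliced by IRE1, were not called in 15 libraries. HSPA5 ran from 11.06 to 12.43, the highest being DMSO S-phase replicate 2, and DNAJB9 from 8.85 to 9.95, the lowest being that same library. XBP1 had 7700.2 normalised reads in the library labelled DMSO asynchronous replicate 3 and 2133.1 to 2965.2 elsewhere. With 13 libraries, HSPA5 (0.63 ± 0.16, adjusted p = 0.0225) and XBP1 (0.31 ± 0.08, adjusted p = 0.0281) were higher on release with Nutlin, and both were lower in non-released than in asynchronous Nutlin cells (-0.46 ± 0.14, adjusted p = 0.0165 and -0.21 ± 0.07, adjusted p = 0.0292). DNAJB9 was higher in S-phase than in asynchronous Nutlin cells (0.33 ± 0.10, adjusted p = 0.0183). Gene-level reads do not tell spliced from unspliced XBP1.

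Whether the Nutlin response differed between states was tested as a difference of differences. The time with Nutlin is not given for asynchronous cells, so state and time with Nutlin cannot be told apart in comparisons with them. In 15 libraries the asynchronous DMSO group also holds the library with CDKN1A and MDM2 at the Nutlin level. No member and no other gene was called in limma in any of the 3 such comparisons (0% of genes). Unadjusted p was under 0.05 for 155, 787 and 321 genes in non-released against asynchronous, S-phase against asynchronous and S-phase against non-released cells, and for 0, 1 and 0 members, and voom called 0 members. The member was CEBPG, at 0.32 ± 0.14, adjusted p = 0.836. For NUPR1 the difference of responses was -0.15 ± 0.21, adjusted p = 1 in the first and 0.19 ± 0.20, adjusted p = 0.868 in the next, so that its responses were not shown to differ between states. In 13 libraries 0 members and 3 genes (0.021%) were called in the first of these, and 0 in the others.

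The state differences were set beside each other with and without Nutlin, which share no library. Of the 16 members called with DMSO and 17 with Nutlin in non-released cells, 14 were called in both in the same direction, 87.5% of the first and 82.4% of the other. All genes gave 81% and 79.7%. In S-phase cells 8 members were called in both, 57.1% and 80%, where all genes gave 59.2% and 68.1%. The 14 were NUPR1, PHGDH, PSPH, ALDH1L2 and CTH, which rose, and TRIB3, PPP1R15A, SLC7A1, SLC7A5, SLC7A11, SLC3A2, GARS, SARS and VEGFA, which fell.

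Among 40 other genes of these pathways, all tested, Nutlin raised 3 in every state and lowered none in 15 libraries (7.5% in each, against 2.45% of all genes in asynchronous, 0.916% in non-released and 2% in S-phase cells). These were ATF3, SESN2 and GADD45A, which are also known p53 targets. The list was chosen with earlier results of these data known, so its shares are a description and not a test. SESN2, a brake on mTORC1, rose by 1.29 ± 0.11 in asynchronous cells (adjusted p = 1.89e-05), and ATF3, a partner and target of ATF4, by 1.16 ± 0.14 (adjusted p = 0.000224). In 13 libraries Nutlin gave 4 higher in asynchronous, 4 in non-released and 5 in S-phase cells, DDIT4 being added in each, and JDP2 lower in S-phase cells (6.21%, 3.21% and 3.94% of all genes called). In non-released against asynchronous cells 7 rose and 15 fell with DMSO (55% against 33.9% of all genes), and 6 rose and 15 fell with Nutlin (52.5% against 34.5%). SHMT1, the cytosolic relative of SHMT2, rose by 0.83 ± 0.10 (adjusted p = 6.58e-05) with DMSO, and SLC1A4, which carries alanine and serine, by 1.07 ± 0.16 (adjusted p = 0.000324). PPP1R15B, the constitutive partner of the eIF2α phosphatase, fell by 0.64 ± 0.09 (adjusted p = 0.000137). With 13 libraries, 8 were higher and 15 lower in that DMSO comparison (47.8% of all genes called), SHMT1, SLC1A4 and PPP1R15B among them. With Nutlin, 8 were higher and 19 lower in 13 libraries (49.9%). In S-phase against asynchronous cells 6 rose and 13 fell with DMSO (47.5% against 27.7%), and 4 rose and 10 fell with Nutlin (35% against 24%). MTHFD1L, a mitochondrial folate enzyme, fell by 0.52 ± 0.08 (adjusted p = 0.000666) with Nutlin. In 13 libraries 7 were higher and 12 lower with DMSO (31.6% of all genes called). With Nutlin 8 were higher and 14 lower there (41%), and MTHFD1L was called. On release none rose in 15 libraries, 1 fell with DMSO (2.5% against 6.99%) and 2 with Nutlin (5% against 2.43%). ATF3 fell by 0.99 ± 0.15 (adjusted p = 0.00158) with DMSO and by 0.88 ± 0.17 (adjusted p = 0.0139) with Nutlin, where JDP2 fell by 0.73 ± 0.16 (adjusted p = 0.0279). In 13 libraries release gave 1 higher and 4 lower with DMSO (14.2% of all genes called), and 2 higher and 3 lower with Nutlin (10.8%). ATF3 and JDP2 were called in both.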

How the data were processed

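RNA sequencing of 15 libraries in 6 groups was analysed from the labels and 1 deposited table of 23368 genes. The authors deposited variance-stabilised values on a log2-like scale, with a lowest value of 4.859 for a gene with 0 reads. The build hg19, DESeq2 1.10.1, HTSeq, TopHat 0.9 and CASAVA 1.8.2 are named per the submitters' processing notes, without roles. Annotation and strand use are not given in the sources used here, so a gene and an antisense partner cannot be told apart. The dose unit of Nutlin lost its prefix in the labels and is read as micromolar.

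Reads were recovered by inverting the transformation, and 99.29 to 99.99% of values came out within 0.05 of a whole read, at 6.05 to 23.38 M reads per library. Normalised reads are these divided by the library's size factor. A count of 0 allows up to 3 reads, or 0.128 to 0.496 per M reads depending on the library, for counting error only.

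limma 3.58.1 in R 4.3.3 was fitted with 1 mean per group over 15 libraries, and eBayes moderation that let the variance follow the mean level (4.66 prior and 9 residual degrees of freedom). Genes entered if 2 or more libraries exceeded the lowest value by 1 unit, which left 14298. Tests were two-sided, with Benjamini-Hochberg adjustment over all genes tested within each comparison. The fit was tested on simulated data. The scale shrinks differences between low values.

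The 37 members and the lists were chosen with earlier results of these data known. Any member may be named, members called in at least 1 comparison of groups are given in every library, and of the 40 other pathway genes the 3 with the smallest adjusted p per comparison may be named. ATF4 is always given in full, and DDIT3 was added after its values were seen. The alternatives were no filter, a stricter filter (2 units), median centring, quantile normalization, voom on recovered reads, no trend, a replicate block, 13 libraries without both that stand apart, and the compared groups alone. Each library of the groups compared was also left out in turn. Sequences are from RefSeq on GRCh38.p14, used for letters only, since the table is on another build.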

Additional observations from a re-analysis of the deposited data

How the results depend on the processing

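Of the 67 calls of a member in a comparison, 546 of 603 repeats under the 9 alternatives that leave out no single library kept both direction and call, and 241 of 351 that leave out 1 library did. The 1 change of direction was SARS in non-released against asynchronous cells with Nutlin, at 0.019 under quantile normalization (adjusted p = 0.897). Counts of members called moved by over 1.5 times as follows, and the cause was not tested. The shares of all genes called in 13 libraries are given above. For the other alternatives, here and in the next paragraphs, no such share is given. Their counts therefore describe the fits and are not read as results about the members. Without both libraries that stand apart they became 1 for Nutlin in non-released cells (from 0), 9 for release with DMSO (from 4), 17 for S-phase against asynchronous with Nutlin (from 10) and 8 for release with Nutlin (from 1). In the compared groups alone they became 3 for Nutlin in non-released cells, 0 for Nutlin in S-phase cells (from 2), 3 for S-phase against asynchronous with DMSO (from 14), 1 for release with DMSO, 26 for non-released against asynchronous with Nutlin (from 17), 16 for S-phase against asynchronous with Nutlin and 4 for release with Nutlin. Under quantile normalization they became 1 for Nutlin in S-phase cells and 8 for S-phase against asynchronous with DMSO.

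Leaving out each library in turn gave 1 to 3 members for Nutlin in asynchronous cells, 0 in non-released and 0 to 2 in S-phase cells. With DMSO it gave 12 to 17 for non-released and 7 to 14 for S-phase against asynchronous cells, and 1 to 4 for release. With Nutlin it gave 8 to 14, 5 to 9 and 1. Only libraries of the groups compared were left out in turn. These ranges do not cover leaving out a library of another group, though all groups share the estimate of the spread. Where a group is left with 1 library, that library is assumed to vary like the others. Some single libraries moved a count by over 1.5 times. For Nutlin in asynchronous cells it was 1 without DMSO replicate 2 or Nutlin replicate 1 or 2, and in S-phase cells 1 without DMSO replicate 1 or Nutlin replicate 1, and 0 without Nutlin replicate 2. With DMSO, S-phase against asynchronous gave 7 without asynchronous or S-phase replicate 1, and release gave 1 without non-released replicate 1 or 2 and 2 without S-phase replicate 1. With Nutlin, non-released against asynchronous gave 11 without asynchronous replicate 2, 8 without non-released replicate 1 and 10 without non-released replicate 2, and S-phase against asynchronous gave 6 without asynchronous replicate 2 or 3 or S-phase replicate 1, and 5 without S-phase replicate 2.

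Same-numbered libraries had correlated deviations from their group means, at 0.31, 0.14 and 0.07 in asynchronous, 0.32 and 0.32 in non-released, and 0.34 and 0.35 in S-phase cells. With 2 libraries in each non-released group, deviations mirror each other, so both 0.32 are the same value. Asynchronous DMSO replicate 2 correlated at 0.22 with a Nutlin library of another number, above its own 0.14. Apart from that replicate, each same-number value lay above the highest with another number. The lowest, 0.07, involves the library that goes against its label and so cannot speak on pairing. The labels name nothing shared. Whether the numbers are pairs was not tested, and the main fit does not take them as such. With a replicate block the counts were 3, 0 and 3 members for Nutlin in the 3 states, 16, 15 and 5 for the DMSO state comparisons and 15, 12 and 1 for the Nutlin ones. Depth was lowest in DMSO S-phase replicate 2, at 6.05 M reads, which limits low members such as STC2 there.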

Other observations

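The genes in this paragraph were chosen after their values were seen, from the list of 40 other pathway genes. Relatives within the pathway had differences of opposite sign in non-released against asynchronous cells with DMSO. SLC1A4, a carrier of alanine, serine and cysteine, rose by 1.07 ± 0.16 (adjusted p = 0.000324), while SLC1A5, its glutamine-carrying relative, fell by 0.55 ± 0.10 (adjusted p = 0.00109). Both proline-making enzymes fell, ALDH18A1 by 0.53 ± 0.11 (adjusted p = 0.00194) and PYCR1 by 0.44 ± 0.16 (adjusted p = 0.0454). Of the eIF2α kinases, EIF2AK2 (PKR), which senses double-stranded RNA, rose by 0.40 ± 0.08 (adjusted p = 0.00187), and EIF2AK4 (GCN2), which senses uncharged tRNA, fell by 0.30 ± 0.09 (adjusted p = 0.0174). EIF2AK3 (PERK) had 0.15 ± 0.10, adjusted p = 0.27, and EIF2AK1 (HRI) 0.04 ± 0.11, adjusted p = 0.837. With Nutlin, EIF2AK2 differed by 0.53 ± 0.08, adjusted p = 0.00029 and EIF2AK4 by -0.33 ± 0.09, adjusted p = 0.00926. Adjusted p-values are from limma on 15 libraries. With 13 libraries, SLC1A4, SLC1A5, ALDH18A1, PYCR1, EIF2AK2 and EIF2AK4 were called with DMSO as well, where 47.8% of all genes were. EIF2AK2 and EIF2AK4 were also called with Nutlin in 13 libraries, where 49.9% of all genes were.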
